A study of Mus musculus with 4 samples.

Results

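The 8 genes described here are the C-type lectin genes of the dectin cluster on mouse chromosome 6, Clec2d, Clec12a, Clec12b, Clec1b, Clec9a, Clec1a, Clec7a and Olr1, out of 22020 protein-coding genes and polymorphic pseudogenes annotated in GENCODE vM21 on GRCm38. Their members in the data are the rows of the authors' 2 tables that lie inside a gene or within 10000 bp of it. These came to 87 of the 269406 listed positions and 1 of the 3389 regions. A listed position is a cytosine that the authors' table gives, with a posterior probability of at least 0.95 that the groups differ beyond a threshold, and the row numbers show how many others were tested. The genes were chosen by the deposited differences at these rows, so counts and differences there are a description and carry no test.

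Whole-genome bisulfite sequencing was made from microglia, the resident macrophages of the brain, of untreated C57BL/6J mice at 3 months of age. There were 2 samples labelled wild type (WT) and 2 labelled as lacking the transcription factor IRF8 (IRF8KO), and all 4 were sorted by flow cytometry. The labels do not describe the Irf8 allele, or whether the 2 samples of a group came from separate animals. The tables hold 1 fitted difference per position or region and nothing for single samples, so the variation between replicates and the read depth behind a value are unknown. Because the headers give the groups as numbers with no genotype, they are called the first and the second group, and no direction is assigned to WT or IRF8KO. Levels of single groups are not used here. Marker expression was not analysed here, so the cell type rests on the labels.

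C-type lectin receptors are transmembrane proteins of myeloid and other immune cells that bind carbohydrate, lipid or protein ligands through a lectin-like domain. Clec7a encodes Dectin-1, a receptor for fungal beta-glucan that signals through the kinase Syk and the adaptor Card9 to NF-kB, and it is a widely used marker of disease-associated microglia. Cytosine methylation at regulatory sequence is often low where a gene's enhancers are in use, and bisulfite reads give it as the share of unconverted cytosines. A difference is given here on a scale from -1 to 1, as the first minus the second group. In sorted bulk cells, a mark that differs in every cell and a different share of cells with the mark cannot be told apart.

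A stretch of the deposited region of Clec7a is shown first (chr6:129471475-129471774, RefSeq's GRCm38, minus strand, the strand of the gene, within intron 1). It is the 300 bases of the region that hold the most listed positions, 12, with the lowest start among stretches that tie. Every tested position of the region was listed, so this choice follows the spacing of its CpGs. Capitals mark the CpGs, all 6 of which were listed on both strands. The first 250 bases upstream of the Clec7a start, from RefSeq's promoter table (GRCm38.p6, chr6:129472780-129473029, minus strand), are given beside it because no position in them was listed. The promoters of the other lectin genes with an entry held none either. In the promoter line the capitals mark an element described with the motifs below.
Clec7a intron 1: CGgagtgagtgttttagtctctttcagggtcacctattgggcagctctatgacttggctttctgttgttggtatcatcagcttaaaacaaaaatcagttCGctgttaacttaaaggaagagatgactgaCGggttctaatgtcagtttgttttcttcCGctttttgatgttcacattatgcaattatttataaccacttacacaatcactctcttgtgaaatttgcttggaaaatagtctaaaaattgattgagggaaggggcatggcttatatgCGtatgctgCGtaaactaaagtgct
Clec7a promoter: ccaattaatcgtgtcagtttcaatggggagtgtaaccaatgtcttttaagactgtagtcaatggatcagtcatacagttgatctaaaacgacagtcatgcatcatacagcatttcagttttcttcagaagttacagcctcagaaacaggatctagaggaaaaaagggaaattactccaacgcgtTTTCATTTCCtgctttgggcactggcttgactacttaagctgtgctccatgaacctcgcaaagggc

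Clec7a (ENSMUSG00000079293.11, chromosome 6, 129461591 to 129472779, minus strand) had the 1 deposited region of the 8 genes. Within 10000 bp, 9.17% of all 22020 genes had one. GENCODE vM21 types the gene as a polymorphic pseudogene with protein-coding transcripts. The region spans 129470867 to 129471933, 1067 bp that begin 846 bp and end 1912 bp downstream of the gene's start. In the direction of transcription it runs from intron 1 across exon 2 into the first bases of intron 2. Exon 2 holds 0 reference CpGs, so every one of the region's positions is intronic. In the authors' deposited table the region's mean level was higher in the first group, as in 53.3% of all regions, by 0.539 over 22 cytosines.

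All 11 reference CpGs of the Clec7a region were listed, on both strands, and the row numbers of the deposited table leave no tested position in it unlisted. At single positions the authors' deposited table gives differences from 0.506 to 0.570, with standard errors from 0.0701 to 0.144. The deposited differences thus varied little along the region, and their whole range was smaller than the median standard error of 0.109. Nearby positions share a fitted value, so a finer profile cannot be read from them. The false discovery rate (FDR), the authors' adjusted p-value, was under 0.05 at 20 of the 22 positions, against 18.7% of all listed positions. The region comes from the same comparison as its positions, and the share inside the other regions was not counted. A high share inside a region is thus no trait of Clec7a by itself. The positions are not independent, since the 22 share 7 distinct differences.

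The numerically largest differences lay in intron 1, within the printed stretch. Since the spread along the region was within the standard errors, no peak can be read from them. The authors' deposited table gives 0.570 at both positions of the CpG 1162 bp downstream of the start, with standard errors of 0.0808 and 0.0884. It was flanked by 0.549 at 4 positions 1280 to 1290 bp downstream and by 0.561 at 4 positions 1104 to 1135 bp downstream in the authors' deposited table, all 8 of them with an FDR under 0.05. Where the region enters intron 2, at 129470867, the authors' deposited table gives 0.514 with a standard error of 0.0701 and the smallest FDR of all 8 genes, 4.46e-09. At the other strand of the same CpG, 129470868, the authors' deposited table gives the same difference with a standard error of 0.123 and an FDR of 0.0276. The 2 positions of the region that missed the threshold had an FDR of 0.179 and 0.185 in the authors' deposited table.

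Smaller differences of the same sign were listed beyond the region on both sides. Toward the start of the gene, 5 more positions in intron 1, between 474 and 700 bp from it, differed by 0.433 or 0.491 in the authors' deposited table, and 2 of them had an FDR under 0.05. With standard errors from 0.0926 to 0.174, the value of 0.491 is not set apart from the region. Toward the gene's end, 6 positions in intron 2 differed by 0.325 or 0.342 in the authors' deposited table, none with an FDR under 0.05. A lone position in intron 4 of transcript Clec7a-201 (129466220) differed by 0.399 in the authors' deposited table, with a standard error of 0.0980 and an FDR of 0.0412. Counting these and the flank, Clec7a had 36 listed positions, all higher in the first group, and 23 with an FDR under 0.05. Many listed positions carry 1 commonest dispersion value per group, and without positions at either value 11 of the 23 calls were left, all 11 in the region. The position with the smallest FDR, 129470867, carries the commonest value of the second group and is not among the 11.

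**Figure D1:**
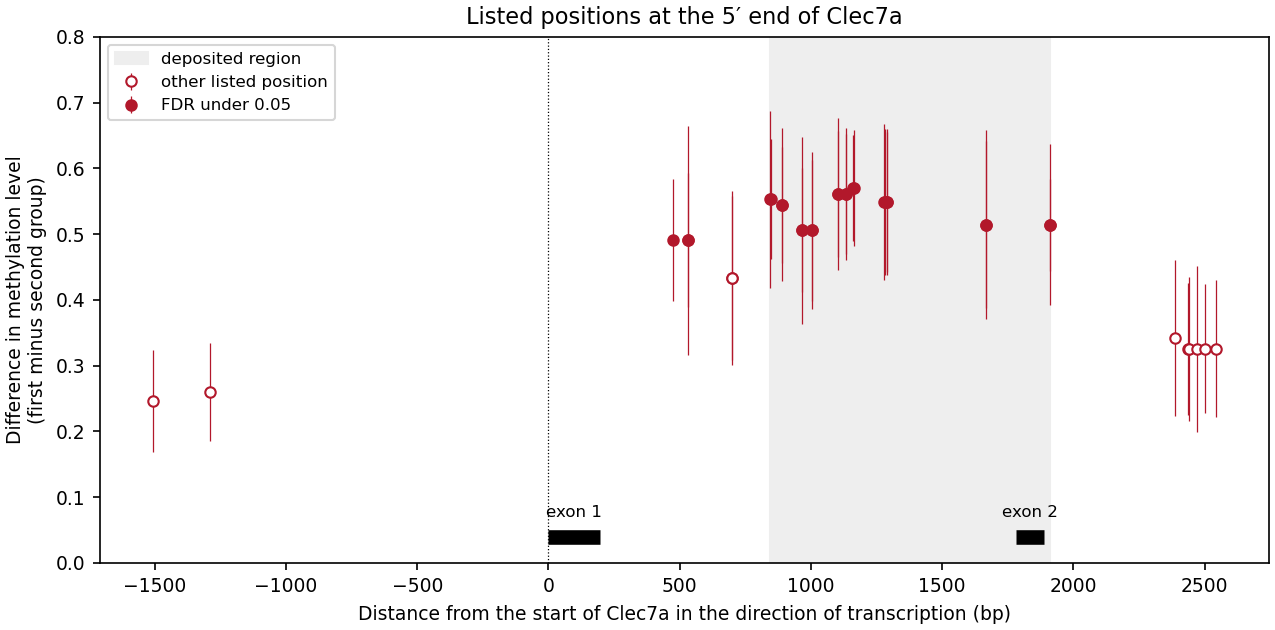
Difference in methylation level (first minus second group, with the deposited standard errors as bars) of each listed position at the 5′ end of Clec7a, by distance in bp from the gene's start in the direction of transcription; filled points have an FDR under 0.05, grey marks the deposited region and black bars the first exons, and positions of 1 CpG overlap. The region lies between 0.506 and 0.570, the flanks are lower, and nothing is drawn at the start itself because no position there was listed.

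No position at the start of Clec7a was listed. This is no trait of Clec7a, since 0 promoter entries of the 7 lectin genes with an entry held a listed position. Between the last listed position of intron 1 and the next one upstream of the gene, a gap of 1764 bp, the row numbers of the table count 34 tested positions without a listing. The row numbers do not show where in the gap they lie, so whether the promoter itself was tested is unknown. The promoter in that gap holds 5 CpGs, against a median of 7 over all promoter entries, and exon 1 holds 0. Upstream of the gap, positions 1290 and 1507 bp before the start were listed in the authors' deposited table with 0.259 and 0.246, at an FDR of 0.228 and 0.468. An unlisted position has no value, so the promoter's methylation was not analysed here.

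Motifs were searched in the Clec7a region on both strands. The composite element GGAANNGAAA, to which IRF8 binds as a complex with PU.1 or a related ETS factor, was found 0 times. The element was present in 23.3% of windows of the same length centred on the 3389 regions. The interferon-type repeat GAAANNGAAA (16.8% of such windows) and the AP-1 site TGANTCA (33.0%) were also found 0 times. The ETS core GGAA, which is part of the composite, occurred at 16 places, where the median window had 12 and 100% had at least 1. In the Clec7a promoter the composite occurred once, 57 to 66 bp upstream of the start and on the strand opposite to the gene, as TTTCATTTCC in the printed line. It was found in 2.72% of all 32851 promoter entries of 300 bp, and Clec7a was the 1 gene with it among the 7 lectin genes with an entry. Clec1a has no entry. The nearest listed position was 531 bp from the element. A match is only a match of letters.

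Over the whole family, 7 of 8 genes had a listed position within 10000 bp, against 64.1% of all genes, and 4 of 8 had one with an FDR under 0.05, against 30.7%. Inside the genes themselves, only Clec12a (7) and Clec7a (23) had such positions. Those of Clec12b and Olr1 lay outside the gene, and that of Clec12b is also counted at Clec12a. Of the 87 positions, 32 had an FDR under 0.05 (36.8%), against 18.7% of all listed positions, and 23 of these were at Clec7a. Outside Clec7a and its flanks, 9 of 51 listed positions had one. Of the 32, 31 (96.9%) were higher in the first group, against 58.1% of all positions past this threshold. Those 31 of the 87 were both past it and higher there, which held for 10.9% of all listed positions. Among all 87 positions 61 were higher in the first group, a share of 70.1%, against 61.9% of all listed positions. Without Clec7a the share turned to 49.0%. With gaps of at most 500 bp, the 87 positions form 15 clusters, 8 with a positive and 7 with a negative difference.

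**Figure D2:**
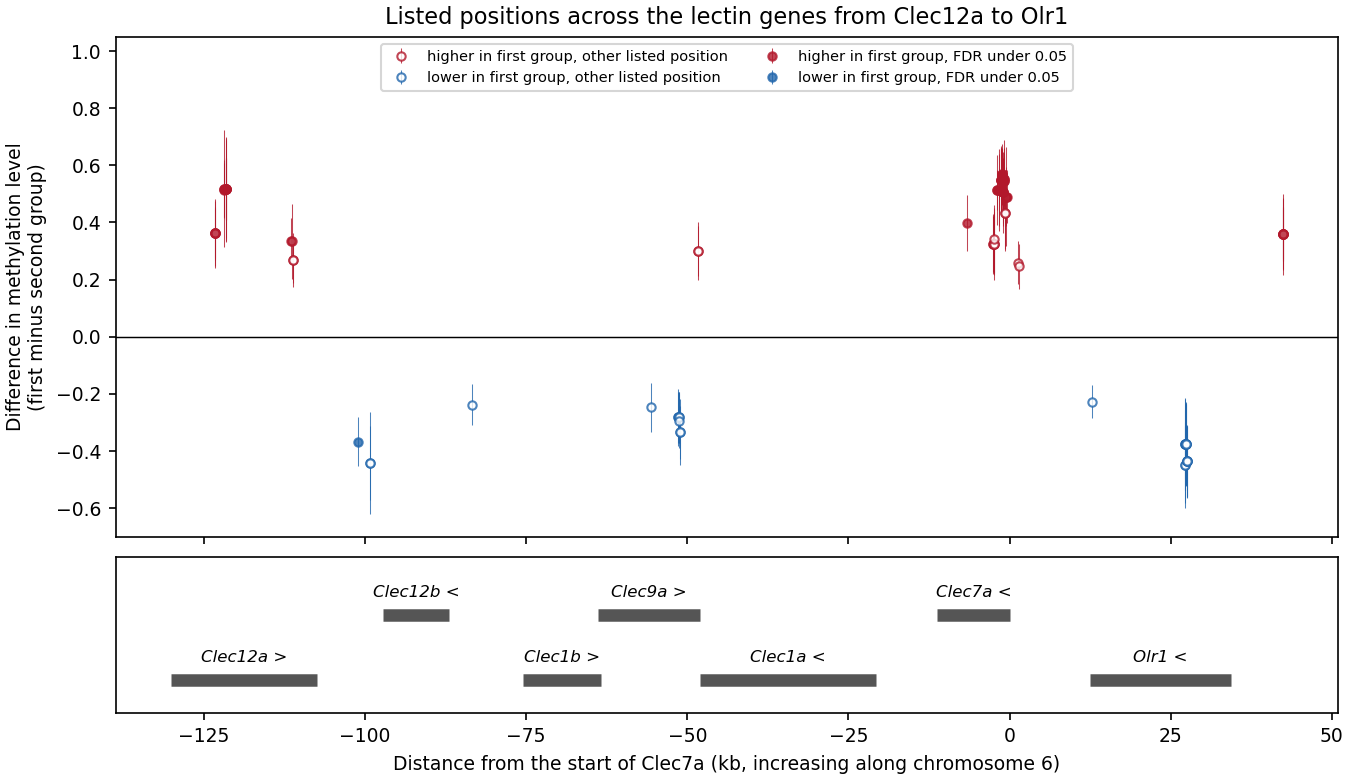
Difference in fitted methylation level (first minus second group) of each listed position from Clec12a to Olr1, against distance in kb from the start of Clec7a; bars are the deposited standard errors, filled points have an FDR under 0.05, and arrows give each gene's strand. Positions at Clec7a and inside Clec12a lie above 0, and those from Clec12b to the introns of Clec9a lie below 0.

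**Figure D3:**
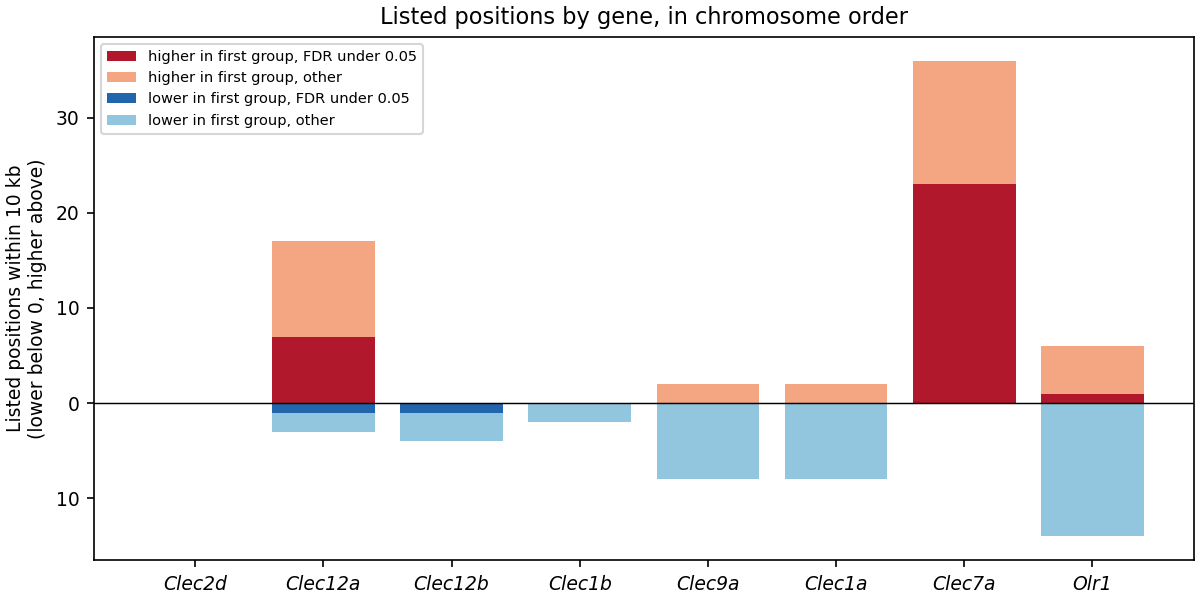
Number of listed positions within 10 kb of each gene, drawn upward where higher in the first group and downward where lower, with dark colours for an FDR under 0.05; positions within reach of several genes count at each. Clec7a has 36 upward and 0 downward, Olr1 has 6 upward and 14 downward, and Clec2d has 0.

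Clec12a (ENSMUSG00000053063.11, 129342691 to 129365303, plus strand), an inhibitory receptor of myeloid cells that binds uric acid crystals, was the other gene with several positions past the threshold. Inside the gene 17 positions were listed, all higher in the first group, and 7 had an FDR under 0.05. The largest differences formed a cluster of 9 positions from 129350933 to 129351205, in intron 1 of transcript Clec12a-201 and 969 to 1241 bp downstream of its start. In the authors' deposited table they lay between 0.512 and 0.519, the size seen at Clec7a, and 5 of the 9 positions had an FDR under 0.05. The 9 positions were all that were tested in that span.

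At this Clec12a cluster the strands of a CpG had the same difference but not the same call. All 5 positions past the threshold, 4 on the minus strand of its CpGs and 1 that is not on a reference CpG (129350966), carry the commonest dispersion of both groups. Their standard errors lay between 0.0966 and 0.109 in the authors' deposited table. At the plus strand of the same 4 CpGs, where both dispersions were their own, the authors' deposited table gives the same differences with standard errors from 0.171 to 0.204 and FDRs from 0.646 to 1. Without positions at a commonest dispersion the cluster had 0 calls, and Clec12a went from 7 inside the gene to 1. Those dispersions ran from 0.0351 to 0.0638 in the first group and from 0.0417 to 0.278 in the second. They thus lay on both sides of the commonest values, 0.0571 and 0.0558. The part of the dispersion in these calls was not tested, and the read depth of each strand is unknown.

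Both stretches of Clec12a near its start are printed to show how they differ in composition, on the plus strand and with CpGs in capitals. The upstream one (chr6:129349484-129349518) lies 446 to 480 bp before the start of Clec12a-201 and in intron 1 of the longer Clec12a-204. Its 4 positions differed by 0.361 in the authors' deposited table, and 1 of them had an FDR under 0.05 (0.0319). The intronic one (chr6:129350933-129351205) holds a run of TG repeats, and 53.5% of its bases are soft-masked as repetitive in the reference. Of its 4 CpGs, 3 lie at the end of that run. The part of the repeat in the differences was not tested.
Clec12a upstream: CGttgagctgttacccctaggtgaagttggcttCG
Clec12a intron 1: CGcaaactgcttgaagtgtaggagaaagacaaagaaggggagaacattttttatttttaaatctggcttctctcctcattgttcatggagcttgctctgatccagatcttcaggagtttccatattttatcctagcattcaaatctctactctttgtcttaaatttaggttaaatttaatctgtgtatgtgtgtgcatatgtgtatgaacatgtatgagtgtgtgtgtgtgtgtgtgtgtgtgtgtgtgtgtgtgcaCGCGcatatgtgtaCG

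Between those stretches the RefSeq promoter of Clec12a, with 3 CpGs, held no listed position, and 11 tested positions in the gap had no listing. Where in the gap the 11 lie is not shown, so whether this promoter was tested is unknown. Further in, 4 positions in intron 5 of Clec12a-201 (129361361 to 129361611) differed by 0.269 or 0.334 in the authors' deposited table, and 1 of them had an FDR under 0.05 (0.0346). That position, 129361361, is not on a reference CpG and carries the commonest dispersion of both groups. The next position, 129361413, is on a CpG and had the same difference but was not past the threshold. The direction changed past the 3′ end of the gene. Between Clec12a and Clec12b the authors' deposited table gives -0.367 at 129371727 and -0.442 at 129373553 and 129373554. The first of these had an FDR of 0.0197 in the authors' deposited table and was the 1 position past the threshold that was lower in the first group.

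Clec12b (ENSMUSG00000030158.12, 129375515 to 129385874, minus strand), a second inhibitory receptor, had no listed position inside the gene. The 3 positions just described lie 1961 to 3788 bp past its 3′ end, and another lies 3470 bp upstream of its start (129389344). That position had -0.237 in the authors' deposited table, with an FDR of 0.353, and does not lie on a reference CpG. Clec1b (ENSMUSG00000030159.15, 129397297 to 129409335), the podoplanin receptor of platelets, had 2 listed positions, both outside the gene, both lower in the first group and neither on a reference CpG. About 377 positions were tested within its reach.

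Clec9a (ENSMUSG00000046080.17, 129408862 to 129424763, plus strand) encodes a receptor of dendritic cells for actin filaments exposed on dead cells. Its 10 listed positions all lie inside the gene, and 0 had an FDR under 0.05. In intron 6 of transcript Clec9a-201, 7 positions from 129421299 to 129421703 lay between -0.334 and -0.282 in the authors' deposited table. The smallest FDR among them was 0.161, and 60.7% of the bases there are soft-masked. In the untranslated part of exon 7, 2 positions went the other way, with 0.300 in the authors' deposited table and a smallest FDR of 0.265. Clec1a (ENSMUSG00000033082.10, 129424772 to 129452000, minus strand), a receptor for fungal melanin, had no listed position inside its 27229 bp, although its window held about 503 tested positions. Its 10 positions are those of Clec9a, the nearest 305 bp past the 3′ end of Clec1a.

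Olr1 (ENSMUSG00000030162.14, 129485244 to 129507165, minus strand) encodes LOX-1, a scavenger receptor for oxidised low-density lipoprotein. It is the next gene of the family after Clec7a. Inside the gene 14 positions were listed, all lower in the first group, and 0 had an FDR under 0.05. Of these, 13 form a cluster from 129499961 to 129500305, with 9 in exon 3, which is coding, and 4 in intron 2. In the authors' deposited table the differences there ran from -0.448 to -0.376, opposite in sign to Clec7a and in size between its region and its flank in intron 2. The standard errors, 0.120 to 0.161 in the authors' deposited table, were larger than the median of 0.103 over all listed positions, and the smallest FDR was 0.172. The other position of Olr1, in the untranslated part of exon 8 (129485555), had -0.227 with a standard error of 0.0570 and an FDR of 0.0556 in the authors' deposited table. The 300 bases of this cluster with most listed positions (chr6:129500006-129500305, minus strand) are printed with CpGs in capitals. Their first 180 bases are the end of intron 2, with 4 listed positions, and the last 120 the start of exon 3, with 7. They are shown because the 13 positions were all that were tested across it and none reached the threshold.
Olr1 intron 2 and exon 3: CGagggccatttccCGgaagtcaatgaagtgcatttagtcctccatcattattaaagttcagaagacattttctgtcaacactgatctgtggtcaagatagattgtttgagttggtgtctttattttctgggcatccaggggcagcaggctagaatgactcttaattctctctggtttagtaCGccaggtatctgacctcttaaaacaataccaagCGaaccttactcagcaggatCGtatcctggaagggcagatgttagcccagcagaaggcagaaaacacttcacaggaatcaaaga

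The remaining 6 positions within reach of Olr1 lie 7959 to 7987 bp upstream of its start and inside the neighbouring gene Tmem52b. They differed by 0.360 in the authors' deposited table, and 1 had an FDR under 0.05 (0.0397). Clec2d (ENSMUSG00000030157.5, 129180615 to 129186534), a ligand of natural killer cell receptors, lies 156157 bp from Clec12a and had 0 listed positions among about 232 tested. The nearest was 17255 bp away. Over the genes, the listed position farthest from its gene but within the limit lay 8251 bp past Clec12a, with -0.442 in the authors' deposited table. The nearest one beyond the limit lay 10958 bp from Olr1, with 0.246 in the authors' deposited table, and belongs to the flank of Clec7a.

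In the merged windows of the 8 genes, 3.51% of about 2481 tested positions were listed, against 0.697% on chromosome 6 and 0.630% of all tested positions. At Clec7a and its flanks the share was 9.04%, and over the other windows it was 2.45%. Counting FDRs under 0.05 alone, these shares were 1.29% in the windows and 0.118% overall. CpGs were sparse in the windows, at 5.96 per kb against 7.97 on chromosome 6. Of the 87 positions, 78 (89.7%) lay on a reference CpG. The Clec7a region itself held 1.03 CpGs per 100 bp, where the median region held 2.02, and 14.3% of regions had fewer. Of its bases, 14.9% were soft-masked, against a median of 7.94% over the regions. Among the 3389 regions the Clec7a region ranked 214 by absolute difference and 339 by absolute area score, the sum of its test statistics.

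**Figure D4:**
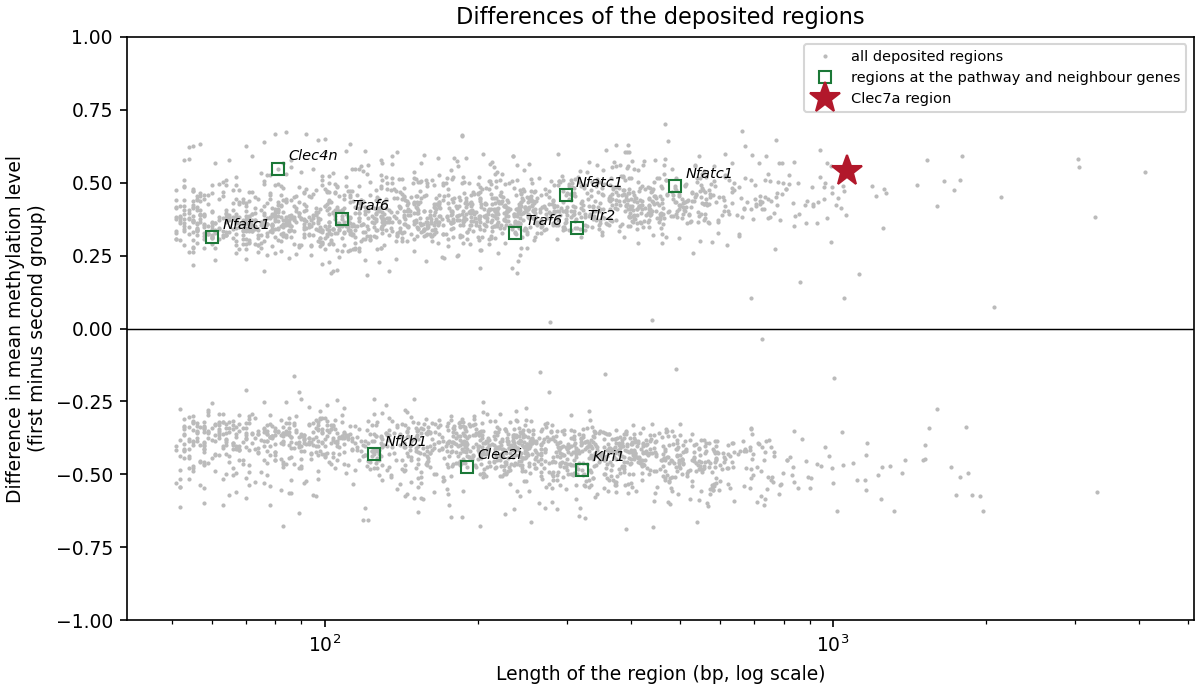
Difference in mean methylation level (first minus second group, y axis) of each deposited region against its length in bp (log scale, x axis); grey points are all regions, squares the 10 regions at the signalling, dectin-2 cluster and natural killer complex genes, and the star the Clec7a region. The Clec7a region lies at 1067 bp and 0.539, and the 3 squares below 0 are those of Nfkb1, Clec2i and Klri1.

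Genes of Dectin-1 signalling were counted in the same way, in a list that also holds Tlr2, a separate receptor that acts together with Dectin-1. Of the 22 genes, 7 (31.8%) had a position with an FDR under 0.05 within 10000 bp, a share near the 30.7% of all genes. The median number of listed positions per gene was 5.5, against 2 over all genes and 10 over the 8 lectin genes, with no adjustment for gene length. Positions past the threshold were higher in the first group at 6 of them (Traf6, Tlr2, Vav3, Rel, Prkcd and Nfatc1) and lower at 1 (Nfkb1), against 20.5% and 16.3% of all genes. Regions were present at 4 (9.17% of all genes had one), higher in the first group at 3 (5.16% of all genes) and lower at 1 (4.67%). Nfatc1, a calcium-regulated transcription factor, had 3 regions inside the gene, at 0.313, 0.457 and 0.487 in the authors' deposited table. Traf6, a ubiquitin ligase, had 2 with 0.327 and 0.377 in the authors' deposited table. Vav3, a guanine nucleotide exchange factor, Prkcd, a protein kinase C, and Rel, another NF-kB subunit, had positions past the threshold but no region. Tlr2, a receptor for microbial lipoproteins, had 1 at a distance of 3041 bp, with 0.345 in the authors' deposited table. The region of Nfkb1, which encodes an NF-kB subunit, had -0.432 in the authors' deposited table. Syk and Card9, the kinase and the adaptor named above, had neither a region nor a position past the threshold.

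In the dectin-2 cluster, a second group of myeloid lectins on chromosome 6, 4 of 8 genes had a position with an FDR under 0.05 (Clec4a1, Clec4b1, Clec4b2 and Clec4n), against 30.7% of all genes, and the median gene had 7 listed positions. Such a position was higher in the first group at 2 genes and lower at 3, with Clec4n in both, against 20.5% and 16.3% of all genes. The region of Clec4n, which encodes the mannan receptor Dectin-2, was the 1 region of the 8 genes, where 9.17% of all genes had one. It spans 81 bp and had 0.548 in the authors' deposited table, beside 0.539 at Clec7a. Among 19 annotated genes of the natural killer complex and the flanks, 12 had a position past the threshold (30.7% of all genes), higher in the first group at 3 (20.5%) and lower at 11 (16.3%), and the median gene had 5 listed positions. Neighbouring genes share some of these positions, which come to 26 distinct ones, 4 higher and 22 lower in the first group. Regions were at 2 of the 19 genes (9.17% of all genes), and both were lower in the first group, with -0.476 in Clec2i and -0.483 in Klri1 in the authors' deposited table. Most of these genes encode receptors of natural killer cells or their lectin-like ligands. The other 10 past the threshold were Klrb1c, Clec2g, Klrb1f, Clec2e, Tmem52b, Klre1, Klrd1, Klrk1, Klrc3 and Klri2.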

How the data were processed

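DNA from 40000 sorted cells per sample was extracted, 50 ng was bisulfite-converted and amplified with 8 PCR cycles, and paired reads of 75 bp were made, per the labels' protocols. Trim Galore, Bismark and mm10 are named in the submitters' processing notes. The caller of sites and regions is not given in the sources used here. Per the file headers, the authors' tables give for each position a difference in methylation level with its standard error and test score, dispersion and posterior scores, and a p-value with its FDR. For regions the authors deposited the difference, the number of cytosines and an area score. The columns of fitted levels name no group, so they were read only to see that each difference is the first minus the second group. There were 0 unused per-sample columns. The smallest posterior listed was 0.95, so the table is a selection of positions.

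Row numbers, which reach 42734461, were used to count tested positions, by interpolation between listed ones. On GRCm38, 78.0% of listed positions lay on a CpG, and 1.71% did after a shift of 100 bp. Genes came from GENCODE vM21, and windows of 10000 bp, an FDR of 0.05 and clusters with gaps up to 500 bp were used. Counting, clustering and motif search were tested on simulated data (Python 3.11.15, pandas 2.3.3). The members and lists were chosen with earlier results of these data known. All genes of the family were named, with list genes that had a region or a position past the threshold. The rule also asked for regions with like levels, which was not run because levels were not used. Alternatives were the window, the FDR, reference CpGs, dispersion, clusters, averaging and leaving out Clec7a or Clec2d. Of the listed neighbours, Clec2f and Clec2j had no match in the annotation. No p-value was computed here, and FDR values are the authors'.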

Additional observations from a re-analysis of the deposited data

How the results depend on the processing

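Of 28 alternatives, 17 left a result within 1.5 times its count, within its exact binomial (Clopper-Pearson) 95% interval, or, for the Clec7a region, within the median standard error of its positions. The 32 positions with an FDR under 0.05 became 13 under 0.001, 87 with all listed positions, 13 when positions with the commonest dispersion values were dropped (11 at Clec7a, 1 at Clec12a and 1 at Olr1), and 7 as clusters. The share higher in the first group, 70.1%, became 96.9% with an FDR under 0.05, 100% under 0.01 and under 0.001, 53.3% over clusters, and reversed to 49.0% without Clec7a, which holds 36 of the 87 positions. The share of tested positions listed, 3.51%, became 2.45% without Clec7a and its flanks and 1.29% with an FDR under 0.05. These settings admit fewer or more positions by construction. The count of regions stayed at 1 in all 5 of its alternatives, and the Clec7a difference stayed between 0.539 and 0.549. Some of these outcomes, counted among the 17, were fixed beforehand. The region lies inside the gene and has 22 cytosines, so a narrower window or cutoffs of 5 and 10 cytosines could not drop it. All 22 are listed and on reference CpGs, so the mean and the reference CpGs returned 0.539 again. Every position of the region lies between 0.506 and 0.570, closer to 0.539 than the median standard error of 0.109. The median and the FDR cutoff thus could not move the difference either. No paired analysis was possible because neither table has a column for a single sample. A coverage minimum, a replicate block and leave-one-out fits were not run for that reason. Depth is unknown, and binomial intervals cover counting error only.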
